A study of Bos taurus with 15 samples.

Results

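The middle region of anchored engineered meniscal tissue was compared with meniscal cells that had been left in collagen with no mold. The comparison used 6 of the 15 libraries of the study, 3 labelled anchored mold, middle region, and 3 labelled no mold, chosen by these treatment labels alone. All samples were bovine meniscal fibrochondrocytes, the cells that make the collagen-rich matrix of the knee meniscus, and RNA was taken at day 28. In the anchored middle group the cell-laden collagen was cast in a 3D-printed mold with post anchors, and the middle region was cut from the tissue. The other molded groups were unanchored middle, anchored post and unanchored post, and the no-mold group was cells in collagen that had no mold around them. All groups shared 3 days in growth medium with 10% fetal bovine serum. They also shared 25 days in a chondrogenic medium with ascorbic acid (50 µg/ml), dexamethasone and TGF-β3 (10 ng/ml). Exposure to these agents was thus common to both sides, and whether the groups responded to them alike was not tested. Each region was dissected into pieces for RNA, and the labels give neither the animals nor the number of tissues behind a group. The p-values therefore measure only how these libraries spread, and that spread may be technical.

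The meniscus lies between cartilage and tendon in its matrix. Its cells make type I collagen fibres as tendon cells do, and in the inner zone also type II collagen and aggrecan. Aggrecan binds water and resists compression. SOX9 is the transcription factor that turns on type II collagen in cartilage. Anchoring posts hold a collagen gel that cells contract, which puts the gel under tension, and small leucine-rich proteoglycans such as decorin and osteoglycin bind collagen fibrils and set their spacing.

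The anchored middle libraries 1, 2 and 3 had total counts of 7287672, 2986944 and 6706643, and the no-mold libraries had 2060781, 4466562 and 2128257. Depth and group thus ran partly together. Anchored middle library 2 stood apart on the second principal component of all 15 libraries (score 37.7, against -18.4 to 11.1 for the others). AFP, a serum protein gene of the fetal liver, had 27.3, 76.7 and 38 CPM of the library total in anchored middle, against 116.0, 42.3 and 115.6 CPM without a mold, so that it was highest in the 3 shallowest libraries of both groups. Transcripts encoded in mitochondria made up 1.77% to 2.36% of counts in anchored middle and 1.40% to 1.74% without a mold. Whether depth, library 2, or these transcripts caused any of the differences below was not tested. Depth and library 2 were varied only in refits. The main fit called 1575 genes between the groups. It was 1140 with counts thinned to the shallowest library and 1861 without anchored middle library 2. Of the 149 called genes among the 164 that the naming rule picked, 93 passed whichever library was left out and 73 passed without the 3 shallowest libraries.

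All 14 meniscal fibrochondrocyte markers were detected in both groups, with a summed level of 39239 to 43739 CPM in anchored middle and 27315 to 38234 CPM without a mold. Most markers of other cells had few counts. Of 14 endothelial markers, 11 had under 10 counts in the 6 libraries together, among them PECAM1, CDH5 and VWF. The same held for 9 of 18 leukocyte, 8 of 12 Schwann and neural and 11 of 14 skeletal muscle markers. ITGAM, CD4 and MYOD1 were at 0. The exceptions include S100B (372 to 437 CPM of the library total), PMP22 (166 to 298 CPM), ERG (51.9 to 81 CPM) and CSPG4 (63.9 to 93.6 CPM) over the 6 libraries, and ERG made up most of the endothelial sum. The summed levels overlapped for endothelial markers (58.3 to 86.2 CPM in anchored middle, 75.2 to 84.9 CPM without a mold) and leukocyte markers (18.5 to 22.1 and 19 to 29.6 CPM). Schwann and neural markers did not overlap (668 to 694 CPM in anchored middle, 595 to 650.1 CPM without a mold), and PMP22, a myelin gene also expressed by fibroblasts, rose by 0.48 (edgeR adjusted p = 0.00287). The muscle markers did not overlap either (7.71 to 12.9 CPM in anchored middle, 14 to 26.7 CPM without a mold), and the gene of that list that passed the test was DES (desmin, an intermediate filament protein). Its log2 fold change was -1.11 (edgeR adjusted p = 0.0042). In bulk RNA, fewer cells of a type and less RNA per cell cannot be told apart. Without the 3 shallowest libraries, the edgeR adjusted p was 0.232 for DES.

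Anchored middle tissue differed from unmolded tissue in 1575 of 11834 tested genes, 841 higher and 734 lower (edgeR quasi-likelihood test, Benjamini-Hochberg adjusted p under 0.05). This is 13.3% of tested genes, 7.11% higher and 6.20% lower, and every count of list members below is to be read beside these shares. Where leaving out 1 library moved such a count by more than 1.5 times, the new count is given with that library in parentheses. The differences were mostly modest: 149 of the higher and 97 of the lower genes changed by more than 1 on the log2 scale, which is the scale of all fold changes given here. In 804 of the higher and 671 of the lower genes the 3 libraries of each side did not overlap, while such separation was seen in 27.9% of all tested genes. Of the 1575 genes, 572 (338 higher, 234 lower) passed whichever of the 6 libraries was left out. The count was 1015 without anchored middle library 3, 768 without no mold library 3, and 411 without the 3 shallowest libraries, a fit that leaves 1 no-mold library and assumes that it varies like the other groups. In that fit the sign of the fold change was kept in all 1575. It reuses libraries of the main fit, and most of these genes had no overlap between the groups. Their sign was thus nearly fixed in advance and is no independent support.

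**Figure D1:**
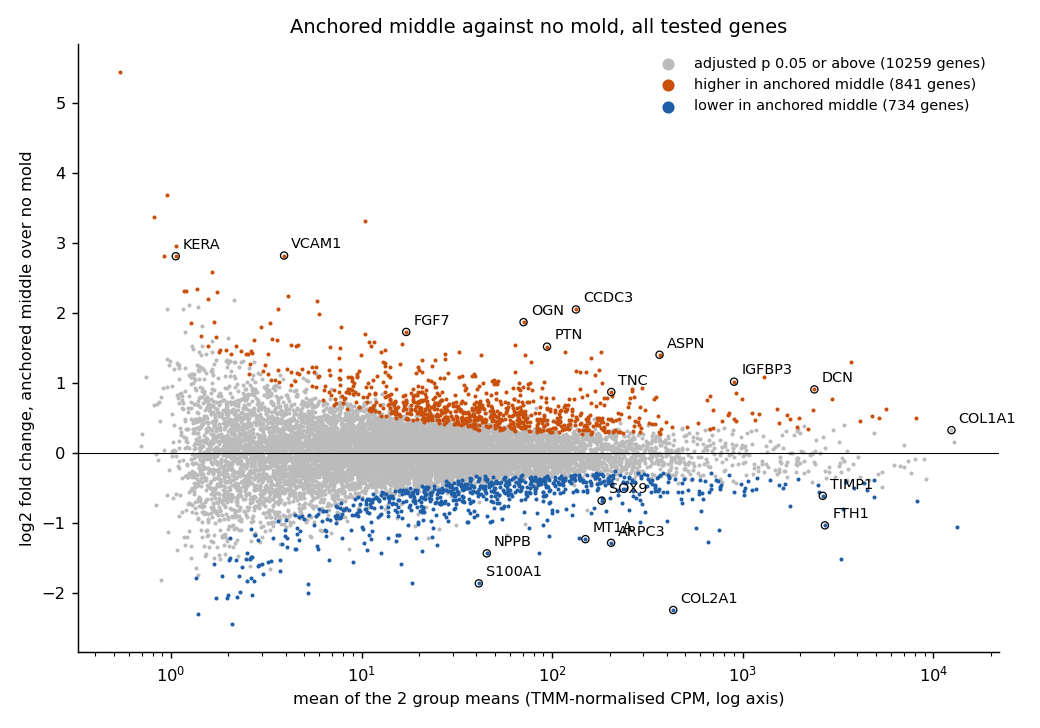
Log2 fold change of anchored middle over no mold (vertical axis) against the mean of the 2 group means in TMM-normalised CPM (horizontal log axis), 1 point per tested gene. The 841 higher genes are orange, the 734 lower genes blue and the others grey. OGN, ASPN and DCN lie among the higher genes, and COL2A1, S100A1 and FTH1 among the lower ones.

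Cartilage collagens were lower in the anchored middle. COL2A1 (ENSBTAG00000013155), the main collagen of cartilage, had 104, 277 and 85.5 CPM in anchored middle libraries 1, 2 and 3, against 864, 750.1 and 510.1 CPM in no-mold libraries 1, 2 and 3 (CPM here and below are normalised by TMM, which scales libraries to a common composition, and are not divided by gene length). The groups did not overlap, and library 2 was the highest of the anchored middle group. The log2 fold change was -2.24 (SE 0.37, n = 3 each, edgeR adjusted p = 0.000312). Collagens that coat or nucleate type II fibrils were lower as well. COL11A2 had 1.3, 3.59 and 2.19 CPM in anchored middle and 8.61, 9.60 and 5.95 CPM without a mold, or -2.00 log2 units (edgeR adjusted p = 9.74e-05). COL9A2 had 3.47, 6.47 and 5.11 CPM in anchored middle and 14.7, 17.4 and 6.95 CPM without a mold (-1.55, edgeR adjusted p = 0.00347, but 0.0741 leaving out no mold 2). In both genes the libraries of the groups did not overlap. COL11A1, the partner chain of COL11A2, went the other way, with 899, 1173 and 1076 CPM in anchored middle and 848, 772 and 630.2 CPM without a mold (0.48, edgeR adjusted p = 0.0189, but 0.0575 leaving out anchored middle 3 and 0.126 leaving out no mold 3). The edgeR adjusted p without the 3 shallowest libraries was 0.303 for COL11A1.

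ACAN, COMP and PRG4, abundant cartilage and joint genes, did not pass the test. ACAN, the gene of aggrecan, had 141, 256 and 179 CPM in anchored middle, against 269, 211 and 158 CPM without a mold (log2 fold change -0.16, SE 0.263, edgeR adjusted p = 0.738). COMP, a glycoprotein that bridges collagen fibrils, had 1481, 3219 and 1868 CPM in anchored middle and 2599, 1469 and 1317 CPM without a mold (0.29, SE 0.287, edgeR adjusted p = 0.568). PRG4, which encodes lubricin, the lubricant of joints, had 213, 368 and 258 CPM in anchored middle and 319, 237 and 271 CPM without a mold (0.02, SE 0.18, edgeR adjusted p = 0.972). Non-whole values, which may hold reads shared between genes (the counting settings were not stated), made up 80.6% of its counts. In these 3 genes the groups overlapped, and anchored middle library 2 was the highest of its group in each. Of 22 cartilage matrix genes, 13 passed the count filter, and 5 of these fell and 1 rose, and with 1 library left out the rises came to 0 (anchored middle 3, no mold 3) and 2 (anchored middle 2) and the falls came to 2 (no mold 2) and 3 (anchored middle 1, anchored middle 3, no mold 1). Their median log2 fold change was -0.16, against 0.01 over all tested genes.

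Among regulators of cartilage, SOX9 fell. It had 138, 145 and 136 CPM in anchored middle and 232, 202 and 237 CPM without a mold, 2 narrow groups with no overlap (log2 fold change -0.68, SE 0.102, edgeR adjusted p = 0.00011). BARX1, a homeobox gene of developing joints, had 20.2, 37 and 29.7 CPM in anchored middle and 38.5, 48.1 and 48.6 CPM without a mold, and fell by 0.71 (edgeR adjusted p = 0.00366). TRPS1 and WWP2, a repressor and a ubiquitin ligase expressed in cartilage, rose by 0.47 (edgeR adjusted p = 0.0348, but 0.154 leaving out anchored middle 2, 0.0542 leaving out anchored middle 3, 0.143 leaving out no mold 2 and 0.125 leaving out no mold 3) and 0.50 (edgeR adjusted p = 0.023, but 0.0787 leaving out anchored middle 2, 0.0631 leaving out no mold 2 and 0.0968 leaving out no mold 3). Of 13 tested chondrogenic regulators of 17, 2 rose and 2 fell, and with 1 library left out the rises came to 0 (anchored middle 2, no mold 2, no mold 3) and 1 (anchored middle 3). With the 3 shallowest libraries left out, the edgeR adjusted p came to 0.187 for TRPS1 and 0.34 for WWP2.

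Small leucine-rich proteoglycans were among the clearest rises. OGN (osteoglycin) had 105, 122 and 107 CPM in anchored middle, against 28.9, 32 and 29.3 CPM without a mold, or 1.87 log2 units (SE 0.157, edgeR adjusted p = 1.97e-07). ASPN (asporin, which binds TGF-β and collagen) had 539.7, 502 and 555 CPM in anchored middle and 178, 250.0 and 171 CPM without a mold (1.40, SE 0.156, edgeR adjusted p = 6.65e-06). DCN (decorin) had 3107, 2985 and 3210.0 CPM in anchored middle and 1748, 1687 and 1521 CPM without a mold (0.91, SE 0.105, edgeR adjusted p = 9.62e-06). In all 3 genes the lowest anchored middle library lay well above the highest no-mold library, and library 2 did not stand apart. KERA, the gene of keratocan, rose by 2.81 from a low level (1.87, 2.16 and 1.61 CPM in anchored middle, 0, 0.229 and 0.496 CPM without a mold, edgeR adjusted p = 0.0086, but 0.0646 leaving out no mold 2). PRELP, which anchors collagen to basement membranes, stood at -1.48 log2 units (edgeR adjusted p = 0.0108, but 0.0678 leaving out anchored middle 1 and 0.155 leaving out no mold 2). BGN (biglycan) had 1995, 2719 and 2518 CPM in anchored middle and 2662, 2333 and 2101 CPM without a mold, which overlapped (0.03, SE 0.139, edgeR adjusted p = 0.929). Of 11 tested members of 13, 4 rose and 1 fell (median log2 fold change 0.57), and with 1 library left out the falls came to 0 (anchored middle 1, no mold 2). Leaving out the 3 shallowest libraries gave an edgeR adjusted p of 0.123 for KERA.

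Some matrix glycoproteins of tendon and fibrous tissue rose too. POSTN, the gene of periostin, which promotes collagen crosslinking, had 372, 279.8 and 381 CPM in anchored middle and 167, 216 and 164 CPM without a mold (log2 fold change 0.91, SE 0.127, edgeR adjusted p = 5.72e-05). TNC (tenascin C, a glycoprotein made in loaded and healing tissue) had 306, 221 and 268 CPM in anchored middle and 125, 179 and 126 CPM without a mold (0.87, SE 0.163, edgeR adjusted p = 0.00101). THBS4 and THBS2, thrombospondins of tendon and connective tissue, rose by 0.89 and 0.76 (edgeR adjusted p = 0.00367 and 0.00557). Libraries of the groups were separate in these 4 genes. Of 15 tested members of 17, 7 rose and none fell (median 0.48). TNC, THBS2, THBS4, POSTN and PDGFRA (a growth factor receptor of fibroblasts) passed whichever library was left out. SCX and MKX, the tendon transcription factors, did not pass. SCX had 28.4, 35.2 and 34.6 CPM in anchored middle and 24.3, 25.8 and 17.9 CPM without a mold (0.48, SE 0.213, edgeR adjusted p = 0.142), and MKX stood at 0.07 log2 units (SE 0.142, edgeR adjusted p = 0.795). In the fit without the 3 shallowest libraries, the edgeR adjusted p was 0.0807 for TNC and 0.0669 for THBS4.

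Of the other collagens and their enzymes, a minority rose. COL5A2, a chain of the type V collagen that starts type I fibrils, had 2709, 2769 and 3040.0 CPM in anchored middle and 2186, 1907 and 1482 CPM without a mold (log2 fold change 0.61, edgeR adjusted p = 0.0042). COL8A1, of a network-forming collagen, rose by 0.58 (edgeR adjusted p = 0.00364). COL1A1 had 12669, 13544 and 15356 CPM in anchored middle and 13929.5, 10444 and 8775 CPM without a mold, which overlapped (0.33, SE 0.204, edgeR adjusted p = 0.32, non-whole values holding 61.4% of counts). COL3A1 did not pass either (0.40, SE 0.165, edgeR adjusted p = 0.108). COL1A2, the other chain of type I collagen, was called higher. It had 9774, 8586 and 10208 CPM of the library total in anchored middle and 7474, 6621 and 5394 CPM without a mold. Its edgeR adjusted p was 0.0715 leaving out anchored middle 3, 0.0592 leaving out no mold 2 and 0.143 leaving out no mold 3. Of 19 tested members of 22, 5 rose and none fell (median 0.33), and with 1 library left out the rises came to 3 (anchored middle 3, no mold 2, no mold 3) and the falls came to 1 (anchored middle 2). Without the 3 shallowest libraries, the edgeR adjusted p was 0.0678 for COL5A2 and 0.0608 for COL8A1.

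Among collagen-processing enzymes, P4HA3, a subunit of the prolyl hydroxylase that stabilises the collagen helix, had 341, 444 and 381 CPM in anchored middle and 215, 218 and 176 CPM without a mold (0.93, SE 0.133, edgeR adjusted p = 7.94e-05). PLOD2, which hydroxylates collagen lysines for crosslinking, rose by 0.42 (edgeR adjusted p = 0.00583). LOX (lysyl oxidase, the crosslinking enzyme) stood at 0.50 log2 units (edgeR adjusted p = 0.0294, but 0.108 leaving out anchored middle 2, 0.0508 leaving out anchored middle 3, 0.096 leaving out no mold 2 and 0.127 leaving out no mold 3). In all, 5 of 26 tested members of 28 rose and none fell, and with 1 library left out the rises came to 2 (no mold 3) and 3 (anchored middle 3, no mold 2) and the falls came to 2 (anchored middle 2). In the elastic fibre list, FBN2 (fibrillin 2, a microfibril protein) had 101, 91.2 and 134 CPM in anchored middle and 57.7, 32.5 and 49.6 CPM without a mold (1.29, SE 0.216, edgeR adjusted p = 0.000342). ELN (elastin) overlapped between the groups and did not pass (-0.13, SE 0.255, edgeR adjusted p = 0.789). The list held 2 rises and no falls among 16 tested genes of 17, and with 1 library left out the rises came to 1 (anchored middle 3, no mold 3). The edgeR adjusted p without the 3 shallowest libraries was 0.324 for PLOD2 and 0.26 for LOX.

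TIMP1, an inhibitor of matrix metalloproteinases, had 2069.8, 2263 and 1917 CPM in anchored middle and 2948, 3172 and 3415 CPM without a mold and fell by 0.61 (SE 0.109, edgeR adjusted p = 0.000664). PLAUR, the receptor of the protease urokinase, fell by 0.53 (edgeR adjusted p = 0.00186). The groups did not overlap in either gene. Among 30 tested proteases and inhibitors of 40, 3 fell and 2 rose, and with 1 library left out the rises came to 0 (anchored middle 1, anchored middle 3, no mold 3), 1 (no mold 1, no mold 2) and 4 (anchored middle 2).

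**Figure D2:**
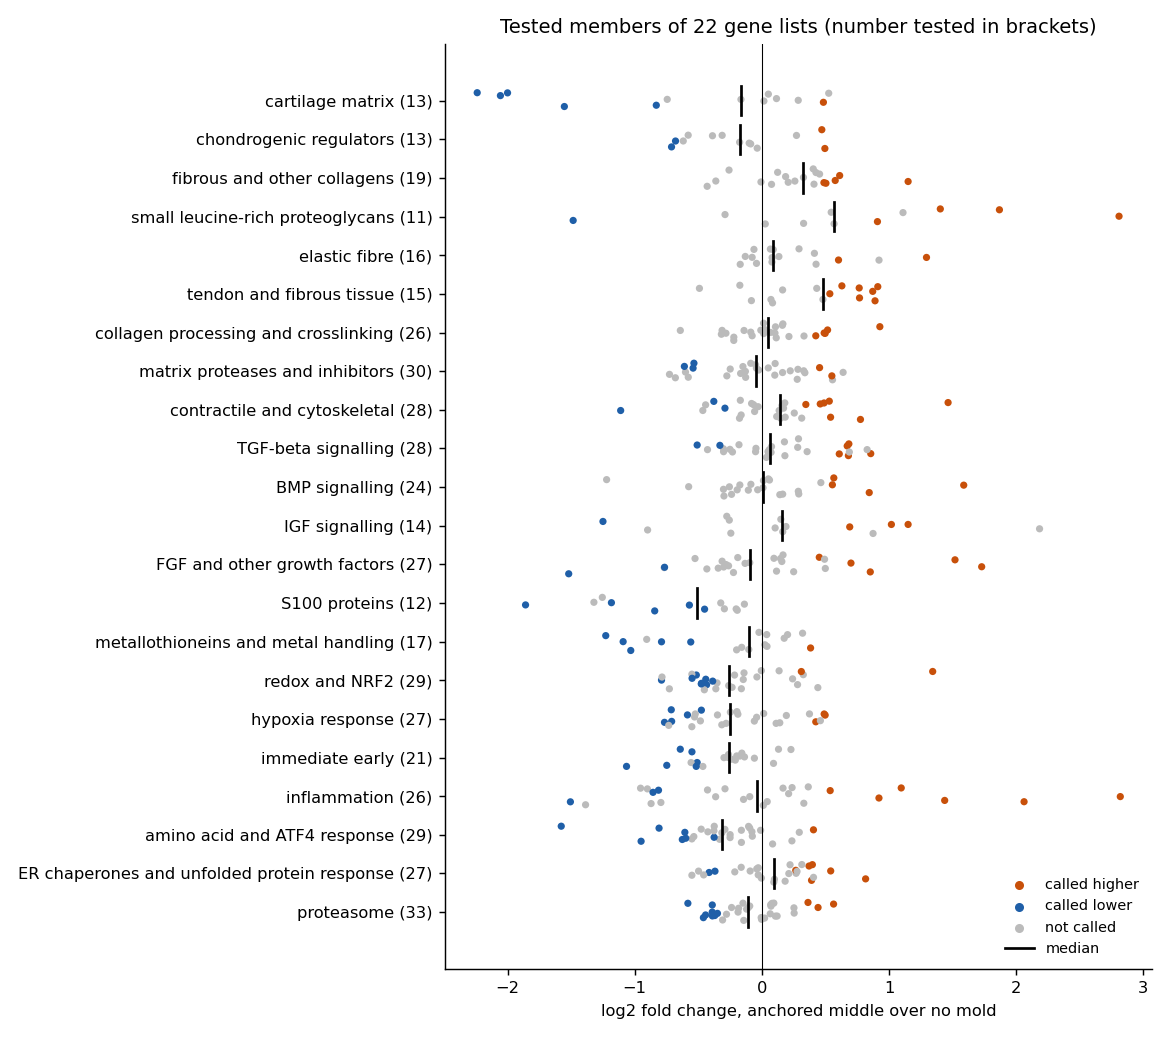
Log2 fold change of anchored middle over no mold for the tested members of 22 gene lists, 1 point per gene, with the list's median as a black line. Orange points passed the test as higher, blue points as lower and grey points did not pass. Of 11 small leucine-rich proteoglycans 4 are orange and 1 is blue, of 13 cartilage matrix genes 1 is orange and 5 are blue, and of 12 S100 genes none is orange and 5 are blue.

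Some genes of the contractile cytoskeleton rose. CALD1 (caldesmon, an actin-binding regulator of contraction) had 1126, 1397 and 1247 CPM in anchored middle and 742, 773 and 686 CPM without a mold, or 0.77 log2 units (SE 0.109, edgeR adjusted p = 6.98e-05). MYLK, the kinase that starts myosin contraction in smooth muscle and fibroblasts, had 16.9, 21.9 and 20.4 CPM in anchored middle and 8.10, 7.54 and 4.96 CPM without a mold and rose by 1.46 (edgeR adjusted p = 0.00245). In both genes the groups did not overlap. ACTA2, which encodes smooth muscle actin, had 959, 1284 and 965 CPM in anchored middle and 691, 879 and 757 CPM without a mold (0.46, edgeR adjusted p = 0.0305, but 0.117 leaving out anchored middle 2, 0.126 leaving out no mold 1 and 0.11 leaving out no mold 3), and non-whole values held 85.9% of its counts. TAGLN (transgelin) and CNN1 (calponin) did not pass (0.31 and -0.44, edgeR adjusted p = 0.102 and 0.151). Of 28 tested members of 30, 7 rose and 3 fell, and with 1 library left out the rises came to 4 (no mold 3) and the falls came to 1 (anchored middle 3, no mold 3). With the 3 shallowest libraries left out, the edgeR adjusted p came to 0.0931 for MYLK and 0.759 for ACTA2.

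The list of the mechanosensitive YAP and SRF pathways, which holds targets and the 2 regulators themselves, showed no common direction. CCN1 and CCN2, secreted proteins that YAP induces, did not pass, at 0.34 (SE 0.159) and -0.07 log2 units (SE 0.114, edgeR adjusted p = 0.16 and 0.737). SRF itself, the serum response factor, had 6.67, 7.54 and 8.76 CPM in anchored middle and 13.7, 13.5 and 12.9 CPM without a mold (-0.80, edgeR adjusted p = 0.012, but 0.0663 leaving out anchored middle 1 and 0.0538 leaving out no mold 2). YAP1 had 3.74, 3.23 and 4.09 CPM in anchored middle and 8.10, 8.23 and 6.45 CPM without a mold (-1.03, edgeR adjusted p = 0.00979, but 0.0727 leaving out no mold 2). SRF and YAP1 showed no overlap of libraries, and these regulators were the only members that fell. The members that rose were CCN5 (1.04, edgeR adjusted p = 0.0166, but 0.23 leaving out no mold 2) and CCN3. CCN3 stood at 0.68 (edgeR adjusted p = 0.0202, but 0.0863 leaving out anchored middle 3 and 0.128 leaving out no mold 3). Of 20 tested members of 24, 2 rose and 2 fell, and with 1 library left out the rises came to 1 (anchored middle 3, no mold 2, no mold 3) and the falls came to 0 (no mold 2) and 1 (anchored middle 1). Among adhesion genes ZYX (zyxin, a tension-sensitive focal adhesion protein) had 111, 137 and 129 CPM in anchored middle and 189, 190.4 and 159 CPM without a mold and fell by 0.53 (edgeR adjusted p = 0.00351). That list held 2 rises and 3 falls among 36 tested genes of 40, and with 1 library left out the rises came to 0 (no mold 3) and 1 (no mold 2) and the falls came to 1 (no mold 2). Leaving out the 3 shallowest libraries gave an edgeR adjusted p of 0.129 for SRF and 0.0877 for YAP1.

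FGF7, PTN and ANGPT1, which encode secreted factors, were among the 12 largest rises. That ranking covers called genes with a unique symbol, at least 10 CPM in a group and no overlap. Genes at a lower level, such as KERA, could rise more. FGF7, a growth factor that connective tissue cells send to epithelia, had 25.4, 25.1 and 29.2 CPM in anchored middle and 7.09, 9.14 and 6.95 CPM without a mold (log2 fold change 1.73, SE 0.204, edgeR adjusted p = 1.26e-05). PTN (pleiotrophin, a heparin-binding growth factor of developing cartilage) had 143, 126 and 146 CPM in anchored middle and 54.2, 37 and 58.6 CPM without a mold (1.52, SE 0.134, edgeR adjusted p = 1.97e-07). ANGPT1, the ligand that activates the endothelial receptor TEK, had 12.7, 8.62 and 14.7 CPM in anchored middle and 3.04, 3.43 and 4.47 CPM without a mold (1.80, SE 0.272, edgeR adjusted p = 0.000116). The groups were separate in all 3 genes. Of 27 tested FGF and other growth factor genes of 40, 5 rose and 2 fell (median log2 fold change -0.10), and with 1 library left out the rises came to 3 (anchored middle 3, no mold 3) and the falls came to 4 (anchored middle 1). DUSP5, a phosphatase that ERK signalling induces, fell by 0.77 (edgeR adjusted p = 0.00428). In the fit without the 3 shallowest libraries, the edgeR adjusted p was 0.0715 for DUSP5.

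Some genes of BMP and TGF-β signalling rose as well. CHRDL1, which blocks BMP4, had 15.5, 16.5 and 17.4 CPM in anchored middle and 4.56, 5.94 and 5.46 CPM without a mold (log2 fold change 1.59, SE 0.205, edgeR adjusted p = 2.3e-05). Of 24 tested BMP genes of 34, 4 rose and none fell, and with 1 library left out the rises came to 2 (no mold 3) and the falls came to 1 (anchored middle 1, anchored middle 2). INHBA, the subunit of activin A, had 56.3, 75.4 and 65 CPM in anchored middle and 41.5, 38.2 and 26.3 CPM without a mold (0.86, edgeR adjusted p = 0.00363), and TGFBR3, the co-receptor betaglycan, rose by 0.67 (edgeR adjusted p = 0.000462). JUNB, a TGF-β-induced AP-1 subunit, fell by 0.51 (edgeR adjusted p = 0.000682). The TGF-β list held 5 rises and 2 falls among 28 tested genes of 29, and with 1 library left out the rises came to 2 (no mold 2, no mold 3) and 3 (anchored middle 1, anchored middle 3) and the falls came to 1 (anchored middle 2, anchored middle 3, no mold 1, no mold 2, no mold 3). TGFBI, a target of TGF-β, did not pass (0.29, edgeR adjusted p = 0.728). It had 13.6, 73.6 and 17.2 CPM in anchored middle and 26.3, 25.1 and 21.3 CPM without a mold, with library 2 far above the other anchored middle libraries. Without the 3 shallowest libraries, the edgeR adjusted p was 0.144 for INHBA.

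IGF binding proteins moved in opposite directions. IGFBP3, the main carrier of IGF in blood, had 1125, 1255 and 1231 CPM in anchored middle and 694, 419 and 676 CPM without a mold (log2 fold change 1.02, SE 0.144, edgeR adjusted p = 7.06e-05). IGFBP2 had 189, 195 and 234 CPM in anchored middle and 127, 58.5 and 103 CPM without a mold (1.15, SE 0.212, edgeR adjusted p = 0.000888). In both the groups were separate, and no-mold library 2 was the lowest of all 6. IGFBP5, which binds to matrix, had 6.14, 15.1 and 7.88 CPM in anchored middle and 23.8, 19.7 and 18.9 CPM without a mold (-1.25, edgeR adjusted p = 0.0165, but 0.0901 leaving out anchored middle 1, 0.0676 leaving out anchored middle 3 and 0.0581 leaving out no mold 1). Of 14 tested IGF genes of 20, 3 rose and 1 fell, and with 1 library left out the rises came to 5 (anchored middle 1) and the falls came to 0 (anchored middle 1, anchored middle 3, no mold 1) and 2 (anchored middle 2). The edgeR adjusted p without the 3 shallowest libraries was 0.0577 for IGFBP5.

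The remaining genes with the largest rises included CCDC3, a secreted protein of fat and vessel cells. It had 186, 245 and 213 CPM in anchored middle, against 60.8, 48.7 and 46.6 CPM without a mold (log2 fold change 2.05, SE 0.236, edgeR adjusted p = 9.62e-06). ANGPTL5, a secreted angiopoietin-like protein, had 104, 77.2 and 105 CPM in anchored middle and 32.4, 37 and 27.8 CPM without a mold (1.54, SE 0.134, edgeR adjusted p = 1.97e-07). Both groups of libraries were tight and far apart in these genes. CIMIP2B, SYTL2 (which tethers vesicles to membranes), CCDC112 and DDIT4L (an inhibitor of mTOR) rose by 1.70, 1.59, 1.55 and 1.52. Each of these genes passed whichever library was left out and also without the 3 shallowest libraries.

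**Figure D3:**
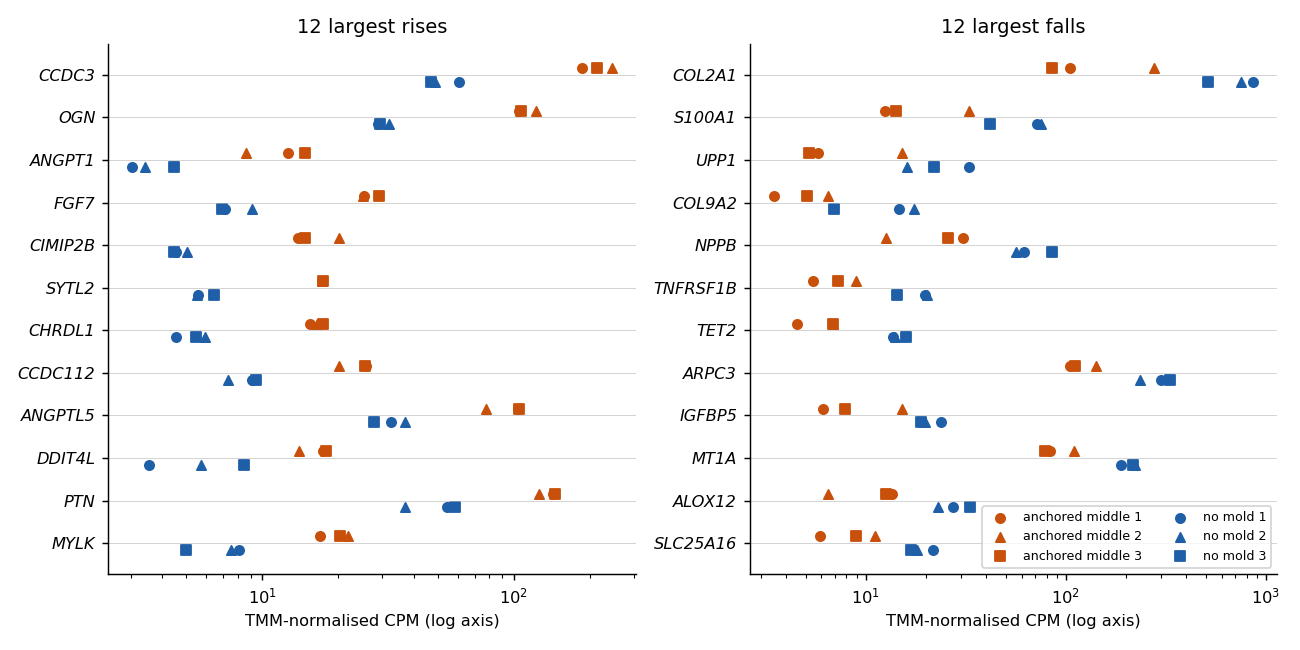
TMM-normalised CPM (log axis) of the 12 genes with the largest rises (left) and the 12 with the largest falls (right), by library. Both were ranked among called genes with a unique symbol, at least 10 CPM in a group and no overlap. Orange symbols are the 3 anchored middle libraries and blue symbols, drawn below them, the 3 no-mold libraries. The colours do not overlap in any gene, as the rule of choice required, and anchored middle library 2 (triangles) is the orange symbol nearest to blue in 9 of the 12 falls, all but NPPB, TET2 and ALOX12.

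S100 genes, which encode small calcium-binding proteins, fell in part. S100A1, a marker of chondrocytes and muscle, had 12.4, 32.7 and 14.2 CPM in anchored middle and 71.4, 75 and 41.7 CPM without a mold (log2 fold change -1.86, SE 0.264, edgeR adjusted p = 7.34e-05). S100A2 had 46.4, 93 and 43.8 CPM in anchored middle and 121, 126 and 150.3 CPM without a mold (-1.18, SE 0.214, edgeR adjusted p = 0.000745). The groups did not overlap, but library 2 was the highest anchored middle library in both. Of 12 tested members of 18, 5 fell and none rose (median -0.51), and with 1 library left out the falls came to 3 (no mold 3). Further large falls were NPPB (a natriuretic peptide, log2 fold change -1.43), TNFRSF1B (a TNF receptor, -1.42), TET2 (a DNA demethylase, -1.29), ARPC3 (an actin-branching subunit, -1.28), ALOX12 (a lipoxygenase, -1.22) and SLC25A16 (a mitochondrial carrier, -1.21). Their edgeR adjusted p lay between 2.02e-06 and 0.0018. With the 3 shallowest libraries left out, the edgeR adjusted p came to 0.0808 for NPPB.

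Some metal-handling and antioxidant genes were lower in the anchored middle. MT1A, a metallothionein that binds zinc and copper, had 83.3, 110.1 and 78.3 CPM in anchored middle and 188, 221 and 216 CPM without a mold (log2 fold change -1.23, SE 0.136, edgeR adjusted p = 6.65e-06). FTH1, the heavy chain of the iron store ferritin, had 1793, 1958 and 1570.4 CPM in anchored middle and 3446, 3394 and 4032 CPM without a mold (-1.03, SE 0.116, edgeR adjusted p = 7.06e-06). HMOX1, which degrades heme, had 102, 158 and 105 CPM in anchored middle and 243, 188 and 193 CPM without a mold (-0.79, SE 0.142, edgeR adjusted p = 0.000715). No libraries overlapped in these genes. Because 100% of FTH1, 94.5% of MT2A and 69.8% of MT1A counts sat in non-whole values, which gene of each family changed is uncertain. Of 17 tested metal-handling genes of 24, 5 fell (MT1A, MT2A, FTH1, FTL and HMOX1) whichever library was left out. The 1 that rose was the iron exporter SLC40A1 (0.38, edgeR adjusted p = 0.0349, but 0.0587 leaving out anchored middle 1, 0.0667 leaving out anchored middle 2, 0.0595 leaving out anchored middle 3, 0.0841 leaving out no mold 1, 0.0923 leaving out no mold 2 and 0.0834 leaving out no mold 3). Leaving out the 3 shallowest libraries gave an edgeR adjusted p of 0.295 for SLC40A1.

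In the list of redox genes and targets of the factor NRF2, 8 fell and 2 rose among 29 tested of 33 (median -0.26), and with 1 library left out the rises came to 1 (anchored middle 3, no mold 3) and the falls came to 2 (no mold 3), 3 (anchored middle 3) and 5 (anchored middle 1). SRXN1 (sulfiredoxin) had 70.3, 63.6 and 65.8 CPM in anchored middle and 94.2, 89.8 and 104 CPM without a mold and fell by 0.52 (edgeR adjusted p = 0.00197). MGST1, a membrane glutathione transferase, was the clear exception, with 38.3, 43.5 and 35 CPM in anchored middle and 18.2, 12.1 and 17.4 CPM without a mold (1.34, SE 0.181, edgeR adjusted p = 3.99e-05). In the fit without the 3 shallowest libraries, the edgeR adjusted p was 0.141 for SRXN1.

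Some hypoxia, glycolysis and amino acid stress genes were lower. NDRG1, a hypoxia-induced gene, had 163, 206 and 159 CPM in anchored middle and 316, 253 and 294 CPM without a mold (log2 fold change -0.71, SE 0.113, edgeR adjusted p = 0.000182). VEGFA, the angiogenic factor, had 8.67, 19.8 and 12.3 CPM in anchored middle and 25.8, 17.8 and 21.8 CPM without a mold, which overlapped (-0.77, edgeR adjusted p = 0.033, but 0.199 leaving out anchored middle 1, 0.0921 leaving out anchored middle 3, 0.133 leaving out no mold 1 and 0.0968 leaving out no mold 3). Of 27 tested hypoxia genes of 31, 5 fell, and 3 rose, all of them enzymes that modify collagen (P4HA1, PLOD2 and LOX), and with 1 library left out the rises came to 1 (no mold 3) and the falls came to 1 (anchored middle 3, no mold 3), 2 (anchored middle 1, no mold 1), 3 (no mold 2) and 9 (anchored middle 2). PYGL, which releases glucose from glycogen, fell by 0.55 (edgeR adjusted p = 0.00264). In the glycolysis list 4 of 24 tested genes of 26 fell and none rose, and with 1 library left out the falls came to 2 (anchored middle 3, no mold 3) and 11 (anchored middle 2). Without the 3 shallowest libraries, the edgeR adjusted p was 0.133 for VEGFA and 0.141 for PYGL.

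In the ATF4 list, of genes that respond to amino acid shortage, 7 of 29 tested of 31 fell and 1 rose (median -0.31), and with 1 library left out the rises came to 0 (anchored middle 2, no mold 2) and the falls came to 3 (no mold 3). PSPH, the last enzyme of serine synthesis, had 80.8, 45.6 and 62.3 CPM in anchored middle and 108, 132 and 132 CPM without a mold (-0.95, SE 0.16, edgeR adjusted p = 0.000371). UPP1, which splits uridine, had 5.74, 15.1 and 5.18 CPM in anchored middle and 32.7, 16 and 21.8 CPM without a mold (-1.58, edgeR adjusted p = 0.00112). The UPP1 value of anchored middle library 2 lay just under that of no-mold library 2.

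Immediate early genes, which cells switch on within minutes of a stimulus, were lower or did not pass. FOSL1, an AP-1 subunit, had 16.9, 13.7 and 14.2 CPM in anchored middle and 31.4, 28.3 and 37.2 CPM without a mold (log2 fold change -1.06, SE 0.153, edgeR adjusted p = 8.29e-05). MAFF, a small MAF factor, had 52.3, 32.2 and 44.2 CPM in anchored middle and 66.8, 77.5 and 76.9 CPM without a mold (-0.75, SE 0.133, edgeR adjusted p = 0.000666). The groups did not overlap in either gene. Of 21 tested members of 24, 6 fell and none rose (median -0.26).

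Inflammation genes split. CXCL14, a chemokine of resting fibroblasts, had 123, 267 and 125 CPM in anchored middle and 55.7, 58.7 and 72.4 CPM without a mold (log2 fold change 1.44, SE 0.256, edgeR adjusted p = 0.000663), with library 2 the highest of all 6. IL33, a nuclear cytokine, had 6.01, 5.39 and 6.42 CPM in anchored middle and 0.506, 1.60 and 1.98 CPM without a mold (2.06, SE 0.391, edgeR adjusted p = 0.00112). VCAM1, an adhesion molecule for leukocytes, rose by 2.82 (edgeR adjusted p = 0.0018) and was low throughout (7.61, 2.51 and 10.5 CPM in anchored middle, 1.52, 1.37 and 0 CPM without a mold). CCL2, the monocyte chemokine, had 24, 14.7 and 22 CPM in anchored middle and 27.8, 43.3 and 40.7 CPM without a mold and went the other way (-0.86, edgeR adjusted p = 0.00449, but 0.0574 leaving out no mold 2). Of 26 tested members of 34, 6 rose and 3 fell, and with 1 library left out the falls came to 1 (no mold 3) and 7 (anchored middle 2). C1S, a protease that starts the complement cascade, had 98.5, 89.4 and 116 CPM in anchored middle and 56.7, 40.2 and 60 CPM without a mold (1.00, SE 0.147, edgeR adjusted p = 9.53e-05). In the complement list 3 of 15 tested genes of 26 rose and none fell, and with 1 library left out the rises came to 1 (anchored middle 3, no mold 2).

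Dexamethasone was in the medium of both groups. Of 18 tested glucocorticoid-responsive genes of 21, 2 rose and 3 fell. CRISPLD2, a secreted protein, rose by 0.79 (edgeR adjusted p = 0.00172). HSD11B1, the enzyme that makes active cortisol, had 42.8, 38.1 and 39.3 CPM in anchored middle and 68.6, 63.2 and 77.7 CPM without a mold and fell by 0.78 (edgeR adjusted p = 0.000172), and non-whole values held 67.3% of its counts. The edgeR adjusted p without the 3 shallowest libraries was 0.0949 for CRISPLD2.

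Chaperones of the secretory pathway rose in part. HSP90B1, an endoplasmic reticulum chaperone, had 743, 1014 and 831 CPM in anchored middle and 495, 591 and 378 CPM without a mold (log2 fold change 0.82, SE 0.14, edgeR adjusted p = 0.000442). CALR (calreticulin) rose by 0.54 (edgeR adjusted p = 0.00317). Of 27 tested members, 6 rose and 2 fell, and with 1 library left out the rises came to 2 (no mold 3) and 3 (no mold 1) and the falls came to 0 (anchored middle 1, no mold 3) and 1 (anchored middle 2, anchored middle 3, no mold 1, no mold 2). The proteasome list went both ways, with 8 falls and 3 rises among 33 tested genes of 34, and with 1 library left out the falls came to 1 (no mold 3), 3 (anchored middle 3) and 5 (anchored middle 1). PSMB4, a core subunit, fell by 0.58 (edgeR adjusted p = 0.00252), while PSMA3, another core subunit, rose by 0.56 (edgeR adjusted p = 0.00234). With the 3 shallowest libraries left out, the edgeR adjusted p came to 0.156 for HSP90B1, 0.305 for CALR, 0.151 for PSMB4 and 0.239 for PSMA3.

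Cell cycle inhibitors differed in direction. CDKN1C, the inhibitor p57, had 164, 206 and 186 CPM in anchored middle and 92.7, 77.7 and 75.4 CPM without a mold (log2 fold change 1.18, SE 0.181, edgeR adjusted p = 0.00015). CDKN1B, the inhibitor p27, rose by 0.56 (edgeR adjusted p = 0.00219). CDKN2A, the inhibitor p16, fell by 0.55 (edgeR adjusted p = 0.00796), and non-whole values held 92.4% of its counts. CCND1 (cyclin D1) had 408, 374 and 448 CPM in anchored middle and 588, 536 and 536 CPM without a mold and fell by 0.43 (edgeR adjusted p = 0.00693). The proliferation marker MKI67 was low in both groups, with 5.34, 5.03 and 8.47 CPM in anchored middle and 11.1, 9.60 and 4.47 CPM without a mold, and did not pass (-0.41, SE 0.352, edgeR adjusted p = 0.489). Of 37 tested members of 38, 3 rose and 7 fell, and with 1 library left out the falls came to 3 (anchored middle 3) and 4 (no mold 2, no mold 3). COX1, a mitochondrially encoded subunit of cytochrome oxidase, had 4416, 3023 and 3638 CPM in anchored middle and 1928, 2598 and 1979.8 CPM without a mold and rose by 0.77 (edgeR adjusted p = 0.000617). Of the 13 mitochondrially encoded genes 3 rose and none fell, and with 1 library left out the rises came to 1 (no mold 3). Leaving out the 3 shallowest libraries gave an edgeR adjusted p of 0.117 for CDKN2A and 0.23 for CCND1.

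Where the anchored middle differed from the other molded groups was tested directly in the same fit, since these groups share the no-mold libraries. Against unanchored middle, 0 genes passed (smallest edgeR adjusted p = 1.00), 0 by DESeq2 and 0 by limma-voom, with 366, 206 and 357 genes at an unadjusted p under 0.05. The 13.3% called against no mold stood beside 0% against unanchored middle. COL2A1 averaged 155 ± 105 CPM in anchored middle, 65.5 ± 30.6 CPM in unanchored middle and 708 ± 181 CPM without a mold (SD, n = 3 each). OGN averaged 111 ± 9.63 CPM in anchored middle, 91.3 ± 16.4 CPM in unanchored middle and 30 ± 1.70 CPM without a mold. A p that misses the threshold does not show that both middle groups are alike.

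Against anchored post, 227 genes (1.92%) passed, 197 higher (1.66%) and 30 lower (0.254%) in the middle. The count was 96 without anchored middle library 3, and 121 and 62 without anchored post library 1 or 3. Of the 1575 genes called against no mold, 129 also differed from anchored post: 109 were higher in the middle than in either group, 19 were lower than in either, and CHAD lay between. Both comparisons use the same anchored middle libraries, which in itself favours agreement in direction. IGFBP3 averaged 1204 ± 69.7 CPM in anchored middle, 548 ± 38.6 CPM in anchored post and 597 ± 154 CPM without a mold (log2 fold change of middle over post 1.14, edgeR adjusted p = 0.000341). HP, the gene of the hemoglobin-binding protein haptoglobin, averaged 16.4 ± 2.07 CPM in anchored middle, 5.92 ± 0.723 CPM in anchored post and 7.71 ± 1.5 CPM without a mold (1.43 over post, edgeR adjusted p = 0.000341, and 1.10 over no mold, edgeR adjusted p = 0.00155). In both genes the anchored post lay near the unmolded cells. The high level was not particular to the anchored middle. Unanchored middle libraries 1, 2 and 3 had 1275, 1432 and 1278 CPM of IGFBP3 and 12.9, 19.2 and 18.7 CPM of HP. CHAD (chondroadherin, a cartilage glycoprotein that binds integrins) averaged 77.6 ± 12.5 CPM in anchored middle, 32.6 ± 4.76 CPM in anchored post and 135 ± 45 CPM without a mold. It was -0.83 against no mold (edgeR adjusted p = 0.0194, but 0.0612 leaving out anchored middle 1, 0.0812 leaving out anchored middle 3, 0.116 leaving out no mold 1 and 0.0759 leaving out no mold 2) and 1.23 against anchored post (edgeR adjusted p = 0.00711). COMP, which did not differ detectably from no mold, was higher in the middle than at the anchored post (1.60, SE 0.293, edgeR adjusted p = 0.0036). In both genes the middle also lay above the post in unanchored tissue. COMP had 1431, 1947 and 798 CPM in unanchored middle and 658, 717 and 369 CPM in unanchored post. CHAD had 74.3, 75.7 and 40.3 CPM in unanchored middle and 35.3, 39.6 and 18 CPM in unanchored post. Of the 13 tested cartilage matrix genes, 8 were higher in the middle than at the anchored post and none lower. The shares over all tested genes were 1.66% and 0.254%. This count was not made again with 1 library left out, nor was it made for unanchored tissue.

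**Figure D4:**
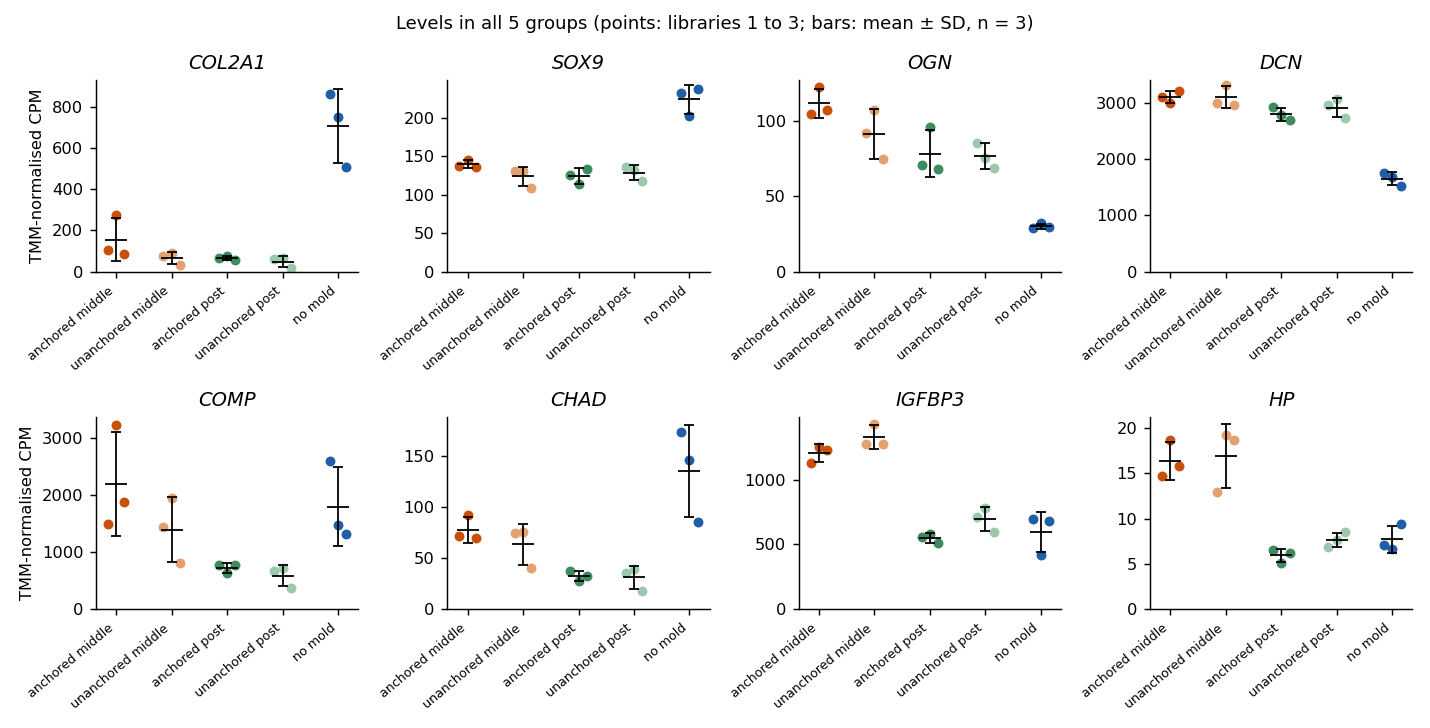
TMM-normalised CPM of 8 genes in all 5 groups, from anchored middle at the left to no mold at the right. Points are the 3 libraries of a group and bars their mean ± SD. COL2A1 and SOX9 are lower, and OGN and DCN higher, in every molded group than without a mold. IGFBP3 and HP are higher in both middle groups than in both post groups and the no-mold group.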

How the data were processed

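RNA was measured in 15 libraries, 3 in each of 5 groups, grouped by the treatment labels. Per the labels' protocols, mRNA was primed with oligo-dT carrying a barcode and a molecular identifier (UMI) and the cDNA was tagmented. The submitters' processing notes name STAR 2.7, Subread 2.1.1 (featureCounts), SAMtools 1.21 and MultiQC 1.33. Build, annotation, counting settings and UMI collapsing were not stated in any source used here, and without collapsing PCR copies count separately.

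The deposited table holds, per library, CPM that the authors deposited (equal to each count scaled to its column total on recomputation) and expected counts that the authors deposited, of which 13.5% to 16.3% of nonzero values per library are not whole (tolerance 1e-06), for a reason not stated. No coordinates were used.

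The expected counts of 38001 genes, without 92 ERCC spike-in rows, were rounded, filtered with filterByExpr (11834 genes) and scaled by TMM. With edgeR 4.0.16 (R 4.3.3), all 15 libraries entered 1 quasi-likelihood fit that had 5 group means, and the script was checked on simulated data. Contrasts were two-sided with Benjamini-Hochberg adjustment over all tested genes. SE is the log2 fold change divided by the root of the F statistic. Alternatives used DESeq2 1.42.0, limma 3.58.1, other scaling and filters, thinned counts and fewer libraries.

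The comparison, the 49 gene lists (1213 genes) and the panel of 24 genes were chosen with earlier results of these data known. Named genes are the 12 largest rises and falls among called genes with a unique symbol, at least 10 CPM in a group and no overlap, up to 4 called members per list with the smallest p, the panel, and up to 6 called genes that also differed from another group. Other named genes were chosen after their values were seen. A list member counts as tested where a single identifier with its symbol passed the filter. Replicate numbers gave no sign of pairing the anchored middle with the no-mold libraries: deviations of same-numbered libraries correlated at -0.170 to -0.063. With 3 libraries a group, such correlations cannot show whether a number marks a shared animal or batch. For anchored middle and anchored post, same-numbered libraries 1, 2 and 3 correlated at -0.029, 0.079 and 0.138, and differently numbered ones at -0.158 to 0.060. Whether middle and post pieces came from the same tissue was not stated, and the main fit does not pair them.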

Additional observations from a re-analysis of the deposited data

Results flagged for a closer look

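Over all 11834 tested genes, 227 (1.92%) differed between the anchored middle and the anchored post, by a direct test in the same edgeR fit. Against unanchored middle, 0 genes passed. The change from unmolded cells differed between the anchored middle and the anchored post in 129 of the 1575 genes called in the anchored middle. The 6 of these with the smallest p had log2 fold changes of middle over post of 1.43 for HP, 1.17 for FGL2 (a secreted fibrinogen-like protein), 1.14 for IGFBP3, 0.94 for ANKRD12, 0.92 for AKAP9 and 0.84 for GOLGA4, the last pair scaffold proteins of the Golgi (edgeR adjusted p = 0.000341 to 0.00052). All 6 were also higher in the anchored middle than without a mold, in a comparison that uses the same anchored middle libraries. GOLGA4 had 85, 104 and 108 CPM in anchored middle and 71.9, 54.4 and 52.8 CPM without a mold, and AKAP9 had 55.8, 81.2 and 73.6 CPM in anchored middle and 48.6, 46.6 and 40.2 CPM without a mold, with no overlap in either gene. The edgeR adjusted p of FGL2 against no mold was 0.0275, but 0.11 leaving out anchored middle 3, 0.177 leaving out no mold 2 and 0.085 leaving out no mold 3. In the fit without the 3 shallowest libraries, the edgeR adjusted p was 0.116 for FGL2.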

How the results depend on the processing

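The count of genes called between anchored middle and no mold was 1575 (841 higher, 734 lower). With 1 library left out it ran from 768 to 1861, the higher genes from 435 to 909 and the lower from 333 to 952. Without the 3 shallowest libraries it was 411 (204 higher, 207 lower), and with the 6 compared libraries alone the lower genes numbered 488. The other alternatives, which were size factors, DESeq2, limma-voom, both filters, rounding down and thinned counts, kept the count within 1.5 times. Shares of higher calls were 53.4% with TMM and 50.4% with size factors, and the median of all genes moved by less than 0.1. Taking the replicate number as a block gave 1595 calls, and among these 6 libraries none correlated best with its own number. Middle against anchored post gave 479 genes without a filter, 150 thinned, 105 with 6 libraries and 62 to 283 with 1 library left out, against 227. With the replicate number as a block, that comparison gave 273. Middle against unanchored middle gave 28 genes without a filter, against 0. Of 2615 values of the 164 named genes under alternatives, 2314 kept their call, 293 lost it, 8 gained it and 0 reversed. The shallow no-mold libraries 1 and 3 limit what low genes can show. The causes of these changes were not tested, apart from fewer samples or genes where the alternative removed them.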

Other observations

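Lipid-handling genes moved both ways. AOX1 (aldehyde oxidase) had 10.1, 8.62 and 9.93 CPM in anchored middle and 1.01, 2.29 and 2.98 CPM without a mold (log2 fold change 2.17, SE 0.291, edgeR adjusted p = 3.92e-05). FABP5, a fatty acid carrier, had 327, 369 and 333 CPM in anchored middle and 175, 214 and 199 CPM without a mold (0.80, edgeR adjusted p = 0.000312). G0S2, an inhibitor of fat breakdown, had 82.3, 67.9 and 65.4 CPM in anchored middle and 119, 107 and 157 CPM without a mold (-0.81, edgeR adjusted p = 0.00058). The groups were separate in all 3 genes. Of 14 tested lipid storage genes of 22, 4 rose and 3 fell. In the cholesterol and fatty acid list 5 of 31 tested genes of 34 fell and 1 rose, and with 1 library left out the rises came to 0 (anchored middle 3, no mold 1, no mold 3) and the falls came to 1 (no mold 3), 2 (anchored middle 3, no mold 2) and 3 (anchored middle 1, no mold 1). Its member DHCR7, the last enzyme of cholesterol synthesis, fell by 0.55 (edgeR adjusted p = 0.00441). Without the 3 shallowest libraries, the edgeR adjusted p was 0.0762 for FABP5, 0.112 for G0S2 and 0.147 for DHCR7.

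Of 30 tested glycosaminoglycan and hyaluronan genes of 34, 2 rose and 2 fell, and with 1 library left out the rises came to 1 (no mold 1, no mold 2) and the falls came to 1 (anchored middle 3, no mold 2, no mold 3). CD44, the hyaluronan receptor, had 449, 344 and 366 CPM in anchored middle and 529.9, 525 and 658 CPM without a mold and fell by 0.56 (edgeR adjusted p = 0.00247). HAS2, a hyaluronan synthase, had 46, 64.1 and 50.5 CPM in anchored middle and 30.4, 30.6 and 42.7 CPM without a mold (0.62, edgeR adjusted p = 0.0182, but 0.0653 leaving out no mold 1 and 0.111 leaving out no mold 2). HSPB7, a small heat shock protein of muscle, had 31.2, 29.8 and 32.4 CPM in anchored middle and 63.8, 51.2 and 63 CPM without a mold and fell by 0.90 (SE 0.113, edgeR adjusted p = 1.93e-05). The heat shock list held 2 rises and 2 falls among 18 tested genes of 21, and with 1 library left out the rises came to 1 (no mold 1) and the falls came to 1 (anchored middle 1, anchored middle 3, no mold 1, no mold 3). APOA1, the gene of a blood lipoprotein, had 27.6, 48 and 26.1 CPM in anchored middle and 68.6, 63 and 56.3 CPM without a mold (-0.98, edgeR adjusted p = 0.000935), highest in its group in library 2, as AFP was. The summed level of 12 liver and serum protein genes was 80.9 to 171 CPM in anchored middle and 131 to 259 CPM without a mold, and the part of depth in it was not tested. The edgeR adjusted p without the 3 shallowest libraries was 0.196 for CD44 and 0.115 for HAS2.

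In the angiogenic and axon guidance list 6 genes rose and 4 fell among 29 tested, and with 1 library left out the rises came to 2 (no mold 3) and 3 (no mold 1) and the falls came to 0 (anchored middle 3, no mold 1), 1 (anchored middle 1) and 2 (no mold 2, no mold 3). The list of nuclear-encoded respiratory chain genes held 2 rises and 5 falls among 52 tested, and with 1 library left out the rises came to 0 (anchored middle 1, anchored middle 2, no mold 1, no mold 3) and 1 (anchored middle 3, no mold 2) and the falls came to 3 (anchored middle 1, anchored middle 3, no mold 3) and 11 (anchored middle 2). Ion and water channels had 1 rise and 2 falls among 16 tested, and with 1 library left out the falls came to 1 (anchored middle 1, anchored middle 3, no mold 1, no mold 2). Lysosome and autophagy genes had no rise and 2 falls among 25, and with 1 library left out the rises came to 1 (no mold 1) and 2 (anchored middle 2) and the falls came to 0 (anchored middle 2, no mold 2, no mold 3) and 1 (anchored middle 3, no mold 1). Among 17 tested Wnt genes 1 fell, the ligand gene WNT5B (edgeR adjusted p = 0.0415), and with 1 library left out the rises came to 1 (anchored middle 1) and the falls came to 0 (anchored middle 1, anchored middle 3, no mold 1, no mold 2) and 3 (anchored middle 2). Of 14 tested interferon and antigen presentation genes 1 fell, the transcription factor gene IRF1 (edgeR adjusted p = 0.0234), and with 1 library left out the rises came to 1 (anchored middle 2, no mold 2) and the falls came to 0 (anchored middle 1, anchored middle 3, no mold 1, no mold 3) and 2 (anchored middle 2, no mold 2). In the mechanosensing and cilium list 1 of 13 tested genes rose, and with 1 library left out the rises came to 2 (anchored middle 2, no mold 1) and the falls came to 1 (anchored middle 2, no mold 2). In the hypertrophy list 1 of 4 tested genes rose, and with 1 library left out the rises came to 0 (anchored middle 2, no mold 3). With the 3 shallowest libraries left out, the edgeR adjusted p came to 0.116 for WNT5B and 0.177 for IRF1.

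Of the 14 meniscal fibrochondrocyte markers 2 rose and 4 fell, and with 1 library left out the rises came to 1 (anchored middle 3, no mold 2, no mold 3). Of 5 tested leukocyte markers none passed. Of 5 tested mural markers none passed. The endothelial receptor gene FLT1, 1 of 2 tested endothelial markers, fell (edgeR adjusted p = 0.0307, but 0.17 leaving out anchored middle 3, 0.0918 leaving out no mold 1 and 0.161 leaving out no mold 2). The globin gene HBM, 1 of 2 tested red blood cell markers, fell (edgeR adjusted p = 0.021, but 0.104 leaving out anchored middle 1, 0.113 leaving out anchored middle 3, 0.0847 leaving out no mold 1 and 0.0669 leaving out no mold 2). Of 7 tested liver and serum protein genes 1 rose and 1 fell, and with 1 library left out the rises came to 0 (anchored middle 1, anchored middle 3, no mold 2, no mold 3) and the falls came to 5 (anchored middle 2, no mold 2). Leaving out the 3 shallowest libraries gave an edgeR adjusted p of 0.132 for FLT1.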
